A study of Mus musculus with 24 samples.

Results

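The mitochondrial respiratory chain was measured through 87 nuclear genes of 12394 on mouse thyroid arrays, in recurrent tumours (n = 9), anaplastic carcinoma (ATC, n = 5), papillary carcinoma (PTC, n = 4) and pools of normal thyroid glands (n = 6). The genes were chosen by a rule on symbols that uses no measured value, but with earlier results of these data known. They begin with Ndufa, Ndufb, Ndufc, Ndufs, Ndufv, Uqcr, Cox4 to Cox8 or Atp5, or are Sdha to Sdhd and their assembly factors. They comprise 34 subunit genes of complex I (6 core and 28 accessory), 4 of complex II, 8 of complex III, 16 of complex IV, 17 of ATP synthase and 8 assembly factors of complexes I and II. Another 9 symbols that meet the rule were only on probe sets shared with other genes and were left out, Ndufa11, Ndufb4 and Ndufs6 among them. The series concerns resistance to loss of BRAF signalling in mouse anaplastic thyroid cancer. Its labels give the tissue alone, and neither genotype, treatment nor age is given for any tumour. Among the normal pools 4 carry WT in the title and 2 carry Cre. Each is labelled as a pool of normal thyroid glands without the number of animals, and no tumour is labelled as a pool. JK stands in the titles of 3 recurrent tumours, 2 ATC, 4 PTC and 4 normal pools, and what JK stands for is not stated. Nothing in the labels says that the tumours came from separate animals, so p-values rest on the spread from sample to sample.

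The respiratory chain of the inner mitochondrial membrane passes electrons from NADH through complex I, or from succinate through complex II, to ubiquinone, then through complex III and cytochrome c to complex IV, which reduces oxygen. Complexes I, III and IV pump protons, and ATP synthase uses the resulting gradient to make ATP. A few subunits of complex IV exist as paired isoforms, one in most tissues and another in striated muscle and brown fat, and thyroid tissue in the mouse neck lies beside both of these tissues. Complexes I, III and IV and ATP synthase also contain subunits encoded in mitochondrial DNA, which were not analysed here.

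Promoter sequences are shown for the isoform pairs of complex IV, because the pairs differed in the tumours as described below, and for members that hold a motif of a factor known to act on respiratory chain genes. In RefSeq's table for GRCm38.p6, 73 of the 87 members had a promoter of 300 bases (250 upstream and 50 downstream of the start). Cox6a2 was among the 14 not matched. The upstream 250 bases are printed 5′ to 3′ on the gene's strand. They lie at chr7:30183921-30184170 (plus strand) for Cox7a1, chr9:79759854-79760103 (minus) for Cox7a2, chr7:140900447-140900696 (minus) for Cox8b and chr19:7217617-7217866 (minus) for Cox8a. Those of the remaining genes lie at chr5:115348959-115349208 for Cox6a1, chr5:108434400-108434649 for Atp5k, chr10:80406822-80407071 for Uqcr11 and chr2:73911327-73911576 for Atp5g3, all on the minus strand. Capitals mark a match to 1 of 4 motifs searched on both strands, GCGCATGCG of NRF1, CCGGAAGT of GABP and other ETS factors, TCAAGGTCA of ERR and AAGATGGCG of YY1. The NRF1 motif can match both strands at places 1 base apart, which gives a longer run of capitals. Longer forms of the NRF1 and YY1 motifs had been counted first and matched fewer promoters, so the forms given here were chosen after counts were seen.
Cox7a1: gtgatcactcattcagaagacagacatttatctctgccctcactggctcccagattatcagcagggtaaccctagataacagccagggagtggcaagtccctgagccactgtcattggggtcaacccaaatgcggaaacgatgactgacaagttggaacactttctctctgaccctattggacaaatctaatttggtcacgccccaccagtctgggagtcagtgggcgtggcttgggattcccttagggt
Cox7a2: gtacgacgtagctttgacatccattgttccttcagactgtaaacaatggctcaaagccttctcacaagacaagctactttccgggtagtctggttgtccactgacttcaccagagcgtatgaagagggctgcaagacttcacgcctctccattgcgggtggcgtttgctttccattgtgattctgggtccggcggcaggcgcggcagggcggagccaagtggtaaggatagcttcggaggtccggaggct
Cox8b: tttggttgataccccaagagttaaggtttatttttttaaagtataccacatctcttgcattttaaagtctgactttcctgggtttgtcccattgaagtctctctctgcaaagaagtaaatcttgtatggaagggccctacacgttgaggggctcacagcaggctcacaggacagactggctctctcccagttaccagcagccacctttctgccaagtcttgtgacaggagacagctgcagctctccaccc
Cox8a: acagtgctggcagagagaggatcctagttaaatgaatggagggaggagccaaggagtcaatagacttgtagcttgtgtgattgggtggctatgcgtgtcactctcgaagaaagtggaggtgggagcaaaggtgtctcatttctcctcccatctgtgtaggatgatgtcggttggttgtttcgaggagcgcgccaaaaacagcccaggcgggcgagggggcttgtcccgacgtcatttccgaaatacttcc
Cox6a1: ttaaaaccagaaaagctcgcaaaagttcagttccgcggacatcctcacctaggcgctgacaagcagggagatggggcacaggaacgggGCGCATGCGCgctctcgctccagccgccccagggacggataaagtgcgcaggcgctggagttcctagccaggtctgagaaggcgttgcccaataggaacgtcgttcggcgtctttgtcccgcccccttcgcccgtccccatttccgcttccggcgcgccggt
Atp5k: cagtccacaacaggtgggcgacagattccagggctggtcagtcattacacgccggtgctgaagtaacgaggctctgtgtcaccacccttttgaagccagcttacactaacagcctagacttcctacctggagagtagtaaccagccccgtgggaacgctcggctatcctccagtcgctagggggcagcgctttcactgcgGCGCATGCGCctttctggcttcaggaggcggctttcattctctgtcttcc
Uqcr11: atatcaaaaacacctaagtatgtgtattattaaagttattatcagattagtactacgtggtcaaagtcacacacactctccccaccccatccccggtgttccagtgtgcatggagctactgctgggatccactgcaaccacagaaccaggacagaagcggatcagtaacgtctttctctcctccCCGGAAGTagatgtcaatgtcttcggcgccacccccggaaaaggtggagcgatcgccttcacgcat
Atp5g3: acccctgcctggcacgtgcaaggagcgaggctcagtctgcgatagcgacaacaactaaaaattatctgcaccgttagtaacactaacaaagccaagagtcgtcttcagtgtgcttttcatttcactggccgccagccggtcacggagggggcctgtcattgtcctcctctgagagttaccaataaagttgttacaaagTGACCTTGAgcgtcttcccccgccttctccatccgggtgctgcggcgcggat
The NRF1 motif was in 9 of 73 member promoters (12.3%) against 1.95% of 27025 genes' promoters, counted over all 300 bases. The ETS motif was in 6.85% of member promoters against 4.31% of all, YY1 in 8.22% against 1.64% and ERR in 2.74% against 0.466%. At least 1 of the 4 was in 21 of 73 member promoters (28.8%) against 7.93% of all. Cox8a is 1 of the 21, through an ETS motif that crosses the end of the printed bases. None was found in Cox7a1, Cox7a2 or Cox8b. CpG dinucleotides numbered 19 per promoter at the median of members and 7 at that of all genes. In the upstream bases printed, Cox7a1 held 4 and Cox8b 1, while Cox7a2 held 14 and Cox8a 11. A match of letters describes these windows and says nothing of binding. Of the members with a motif 19 of 21 were called lower in ATC against normal, and of the matched members without one 44 of 52. In PTC these counts were 17 of 21 and 29 of 52, and in recurrent tumours 16 of 21 and 36 of 52. Of all genes 19.1%, 8.03% and 19.3% were called lower in ATC, PTC and recurrent tumours. Whether the motifs had a part in these differences was not tested.

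Levels are log2 intensities after RMA, so a difference between levels is a log2 ratio, and each gene was read by its brightest probe set. A gene was called where limma's moderated test over all 12394 genes gave an adjusted p under 0.05. The members are mostly bright, 69 of 87 having a mean over 10, and RMA brings arrays to a common distribution, so the 1983 other genes with a mean over 10 serve as background beside all genes. In whole tissue, fewer cells of a type and less RNA per cell cannot be told apart. Markers of other cell types moved with the groups. Against normal, white fat markers were called lower in 6 of 6 genes in recurrent tumours and ATC and in 4 of 6 in PTC. Brown fat markers were called lower in 5, 5 and 4 of 6 genes in recurrent tumours, ATC and PTC. Thyrocyte markers were lower in 8, 8 and 5 of 9, and Slc26a4 among them was called higher in PTC (2.12). Of all genes 19.3%, 19.1% and 8.03% were called lower in recurrent tumours, ATC and PTC, and 14.5%, 15.1% and 6.16% higher. Macrophage markers were higher in 5, 7 and 1 of 8 genes and fibroblast markers in 6, 5 and 2 of 8, while of 16 skeletal muscle genes none was lower and 1, Myh7 in PTC, was higher. Their part in the results below was not tested. Gapdh's 3′ minus 5′ probe signal, a measure of RNA integrity, ran from -0.02 to 1.07 in recurrent tumours, 0.07 to 0.96 in ATC, 1.11 to 1.60 in PTC and 0.64 to 0.98 in normal pools. In recurrent tumours and ATC it followed the titles, at 0.36 to 1.07 and 0.82 to 0.96 with JK titles. With other titles it was at -0.02 to 0.17 and 0.07 to 0.15. Normal pools did not differ in this way, at 0.64 to 0.85 with JK titles and 0.64 and 0.98 with Cre titles. A few arrays went against their group. Tg, the thyroid hormone precursor, was at 14.18 on recurrent 4, 11.31 on recurrent 1 and 13.48 on ATC 4, against at most 5.98 on the other recurrent and ATC arrays and 14.80 to 14.96 in normal pools. Recurrent 4 also had the highest Ckm (14.36), the muscle creatine kinase, and normal pool 5 had Ucp1, the uncoupling protein of brown fat, at 5.60, where the remaining normal pools had 10.86 to 12.18.

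Respiratory chain genes were lower in all 3 kinds of tumour than in normal thyroid, across every complex. In recurrent tumours 61 of 87 members were called lower (70.1%, against 19.3% of all genes) and 1 higher (1.15%, against 14.5%). In ATC 73 were lower (83.9%, against 19.1%) and none higher (15.1% of all genes were), and in PTC 54 were lower (62.1%, against 8.03%) and none higher (6.16% of all genes were). Among the other bright genes 23% were lower in recurrent tumours, 18.6% in ATC and 10.8% in PTC. The median member differed by -0.54 in recurrent tumours, -0.81 in ATC and -0.72 in PTC, or 68.7%, 56.9% and 60.5% of normal, while the median of all genes differed by -0.03, -0.08 and -0.01. The same 6 normal pools stand in all 3 comparisons.

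Whole groups separated for most members in ATC and PTC. Every ATC lay below every normal pool for 71 members (81.6%, against 19.2% of all genes), and every PTC for 72 (82.8%, against 19.7%). In recurrent tumours this held for 9 members (10.3%, against 5.12%). Without recurrent 4 the number was 18 (20.7%, against 5.63%), and without recurrent 4 and normal pool 5 it was 48 (55.2%, against 7.4%). Among the other bright genes, over all arrays, the shares were 20.8% in ATC, 28.2% in PTC and 7.67% in recurrent tumours. The array's median over members, as a difference from the normal mean, was -0.93 at the lowest, -0.53 at the median and 0.08 at the highest recurrent tumour. It was -0.92 to -0.73 in ATC, -0.77 to -0.70 in PTC and -0.26 to 0.08 in normal pools. The PTC were the most uniform group, and the recurrent tumours spanned nearly the whole range of the series.

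**Figure D1:**
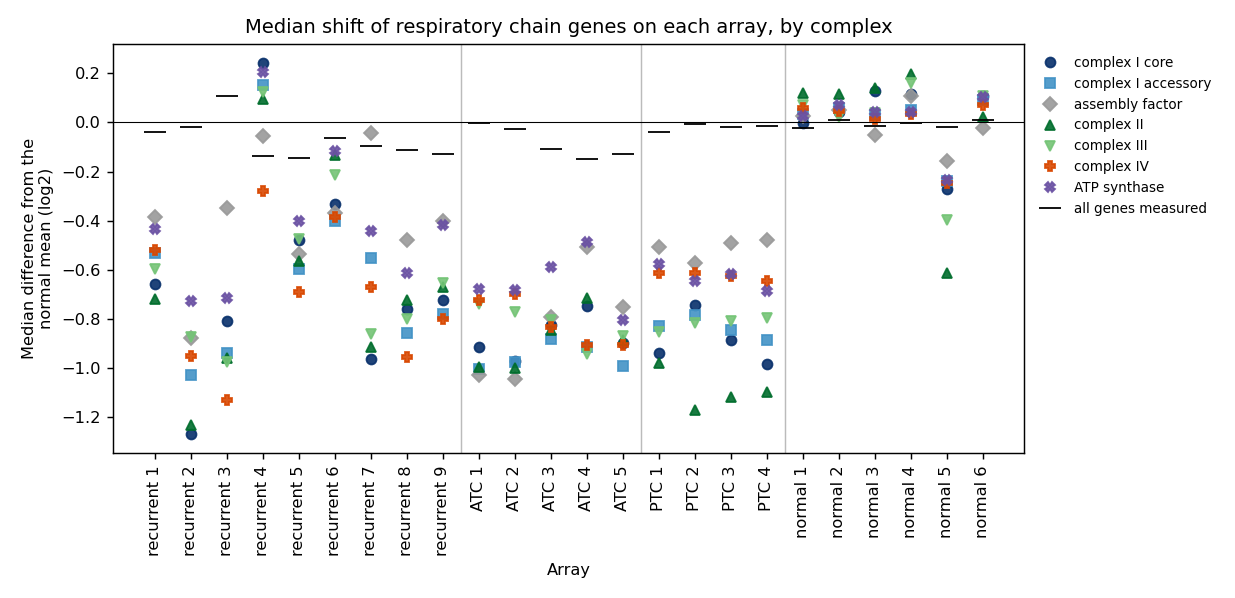
Median difference from the normal mean (log2) of each set of respiratory chain genes on each of the 24 arrays, with recurrent tumours, ATC, PTC and normal pools in blocks separated by grey lines, and dashes for all 12394 genes. ATC and PTC arrays lie below every normal pool in each complex, recurrent 4 lies near the normal pools, and normal pool 5 lies below the others of its group.

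Complex I, the NADH dehydrogenase and largest of the complexes, had 27 of 34 subunit genes called lower in recurrent tumours, 29 in ATC and 20 in PTC. The shares were 79.4%, 85.3% and 58.8%, against 19.3%, 19.1% and 8.03% of all genes, which also stand beside the counts of the complexes below. The core subunits of complex I, which carry the flavin and the iron-sulfur clusters, were called in 6, 6 and 4 of 6, with median differences of -0.64, -0.88 and -0.89. Ndufv1, the flavin-binding subunit, fell by 0.66, 1.12 and 0.96 in recurrent tumours, ATC and PTC on the log2 scale, and Ndufs1, which carries iron-sulfur clusters, by 0.47, 0.88 and 1.09. Ndufs7 and Ndufs8, also iron-sulfur subunits, fell in recurrent tumours and ATC, and in PTC differed by -0.31 and -0.39 without a call.

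Among the accessory subunits, Ndufa1, an X-linked subunit of the membrane arm, had the largest fall of complex I in each tumour group. Its level was 11.32 at the lowest, 12.30 at the median and 12.98 at the highest recurrent tumour. It was 11.98, 11.95, 12.04, 12.29 and 12.06 in ATC, and 12.30, 12.24, 12.21 and 12.17 in PTC. In normal pools it was 13.48, 13.74 and 13.80 at the lowest, median and highest. No tumour of any group reached the lowest normal pool. The differences were -1.42 ± 0.17 (SE; adjusted p = 1.37e-06) in recurrent tumours, -1.64 ± 0.19 (1.59e-06) in ATC and -1.47 ± 0.21 (5.2e-05) in PTC.

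Ndufb8, another membrane arm subunit, also separated all tumours from all normal pools. It had 10.97, 11.83 and 12.58 at the lowest, median and highest recurrent tumour, 11.38 to 11.55 in ATC, 11.43 to 11.76 in PTC and 12.73 to 12.998 in normal pools. The differences were -1.22 ± 0.17, -1.43 ± 0.20 and -1.33 ± 0.21 (SE) in recurrent tumours, ATC and PTC. Ndufv3, an accessory subunit of the flavoprotein part, fell by 1.23 in recurrent tumours and 1.29 in ATC, and differed by -0.61 in PTC without a call (adjusted p = 0.213). Ndufa5 of the peripheral arm was among the 3 largest falls of the complex in ATC, with -1.38, and was not called in JK titles alone (-1.005, adjusted p = 0.0624). Ndufab1, the mitochondrial acyl carrier protein, which also serves fatty acid synthesis inside the mitochondrion, was among the 3 largest in PTC, with -1.26 ± 0.21 (SE).

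Ndufb1, a small accessory subunit, was the exception, though its probe set was dim, near the array medians of 7.38 to 7.58. It had 7.02, 7.65 and 8.08 at the lowest, median and highest recurrent tumour, 7.10, 7.04, 7.47, 7.22 and 7.72 in ATC, 6.97, 6.46, 6.71 and 6.70 in PTC, and 6.91 to 7.22 in normal pools. It rose in recurrent tumours against normal by 0.44 ± 0.14 (SE; adjusted p = 0.0221), the only rise among the 87 members there, and the ranges overlapped. It lost this call in 1 of 15 fits that left out 1 array. In ATC it differed from normal by 0.19 and in PTC by -0.41, neither called. Ndufa2 and Ndufb7 were called in no comparison, with differences from normal between -0.35 and -0.15. Ndufa4, counted here by its symbol, is now known as a subunit of complex IV, and fell by 0.75, 1.12 and 0.89 in recurrent tumours, ATC and PTC.

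**Figure D2:**
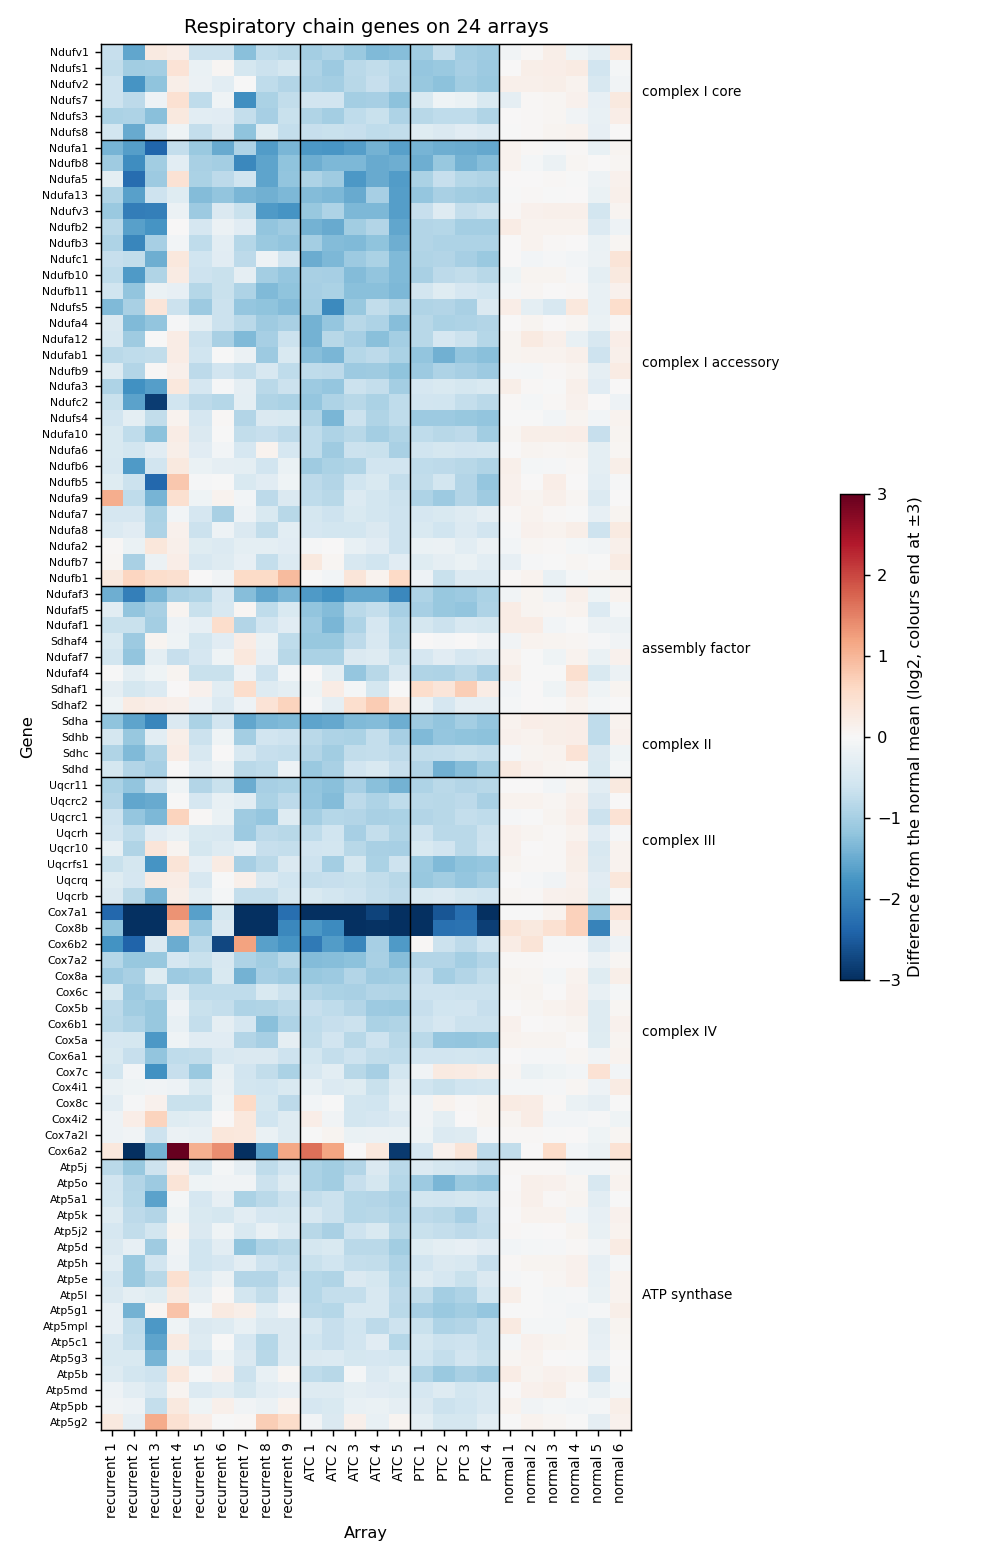
Level of each of the 87 genes (one per row, grouped by complex) on each of the 24 arrays, as a log2 difference from the mean of the normal pools, with blue below and red above it. Blue fills the ATC and PTC blocks in most rows, recurrent 4 is pale, Cox7a1 and Cox8b have the darkest tumour rows, and Cox6a2 is red on some tumour arrays and dark blue on others.

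Of the 8 assembly factors, which build complexes I and II without staying in them, 3 were called lower in recurrent tumours, 6 in ATC and 3 in PTC. Ndufaf3, a complex I factor, had the largest fall of all members outside the isoforms in ATC. Its level was 7.51, 8.20 and 9.07 at the lowest, median and highest recurrent tumour. It was 7.87, 7.76, 8.01, 8.01 and 7.63 in ATC, and 8.64, 8.43, 8.47 and 8.62 in PTC. It was 9.44 to 9.72 in normal pools, above every tumour. It fell by 1.27 ± 0.16, 1.71 ± 0.18 and 1.03 ± 0.20 (SE) in recurrent tumours, ATC and PTC. Ndufaf5, which modifies the core subunit Ndufs7, fell by 0.52, 1.00 and 1.06. Ndufaf1 fell in ATC by 0.95, Ndufaf4 in PTC by 0.91, and Ndufaf7 in recurrent tumours by 0.46. In recurrent tumours Ndufaf7 (adjusted p = 0.0845) and Ndufaf5 (0.0588) were not called with the 2 groups fitted alone, and Ndufaf7 lost its call in 8 of 15 fits that left out 1 array and Ndufaf5 in 1. The factors of complex II did not move as a set. Sdhaf4, which helps Sdha mature, was called lower in ATC alone (-0.87, against -0.36 in recurrent tumours and -0.03 in PTC). Sdhaf1, which helps insert iron-sulfur clusters, differed by -0.17, -0.10 and 0.46, and Sdhaf2, which attaches the flavin, by 0.09, 0.25 and -0.31, with no call.

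Complex II, or succinate dehydrogenase, which also serves the citrate cycle and is encoded wholly in the nucleus, had all 4 subunits called lower in each tumour group. Sdha, the flavin subunit, was at 10.27, 10.91 and 11.80 in the lowest, median and highest recurrent tumour. It was at 10.65, 10.70, 10.91, 10.93 and 10.76 in ATC, and at 11.16, 11.05, 11.21 and 11.07 in PTC. In normal pools it was at 12.33 to 12.42 except in pool 5, which had 11.47. ATC and PTC lay below all normal pools, while recurrent 4 and recurrent 6 (11.66) lay above pool 5. Sdha fell by 1.22 ± 0.19, 1.44 ± 0.22 and 1.11 ± 0.24 (SE) in recurrent tumours, ATC and PTC. Sdhb, the iron-sulfur subunit, had 10.84, 11.42 and 12.16 at the lowest, median and highest recurrent tumour. It had 10.99 to 11.26 in ATC and 10.65 to 10.82 in PTC. Normal pool 5 had 11.22 and the other pools 12.09 to 12.19. Sdhb fell by 0.53, 0.88 and 1.23 in recurrent tumours, ATC and PTC. The membrane anchors Sdhc and Sdhd fell by 0.59 and 0.51 in recurrent tumours, 0.83 and 0.76 in ATC, and 0.71 and 1.16 in PTC. With the comparison's 2 groups fitted alone, Sdhb (adjusted p = 0.0738) and Sdhc (0.0575) were not called in recurrent tumours.

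Complex III, the cytochrome bc1 complex, had 4 of 8 genes called lower in recurrent tumours, 8 in ATC and 6 in PTC, with median differences of -0.56, -0.79 and -0.82. Uqcr11, a small subunit whose promoter above holds the ETS motif, was at 10.89, 11.42 and 12.24 in the lowest, median and highest recurrent tumour, 10.95 to 11.38 in ATC, 11.45 to 11.56 in PTC and 12.05 to 12.65 in normal pools. It fell by 0.87 ± 0.15, 1.22 ± 0.17 and 0.86 ± 0.18 (SE). Uqcrfs1, the Rieske iron-sulfur protein, was at 9.90, 11.15 and 12.05 in the lowest, median and highest recurrent tumour. It was at 10.65 to 11.15 in ATC and 10.35 to 10.56 in PTC, against 11.23 to 11.85 in normal pools. It fell by 1.20 in PTC and 0.75 in ATC, and differed by -0.54 in recurrent tumours without a call (adjusted p = 0.07). The core proteins Uqcrc1 and Uqcrc2 differed by -0.58 and -0.74 in recurrent tumours, where Uqcrc2 was called, and fell by 0.93 and 0.98 in ATC. Uqcrq, a small subunit named for ubiquinone binding, fell by 0.73 in ATC and 1.09 in PTC and differed by -0.20 in recurrent tumours. Both of its other probe sets gave a difference of the opposite sign in PTC, 0.24 and 0.17.

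**Figure D3:**
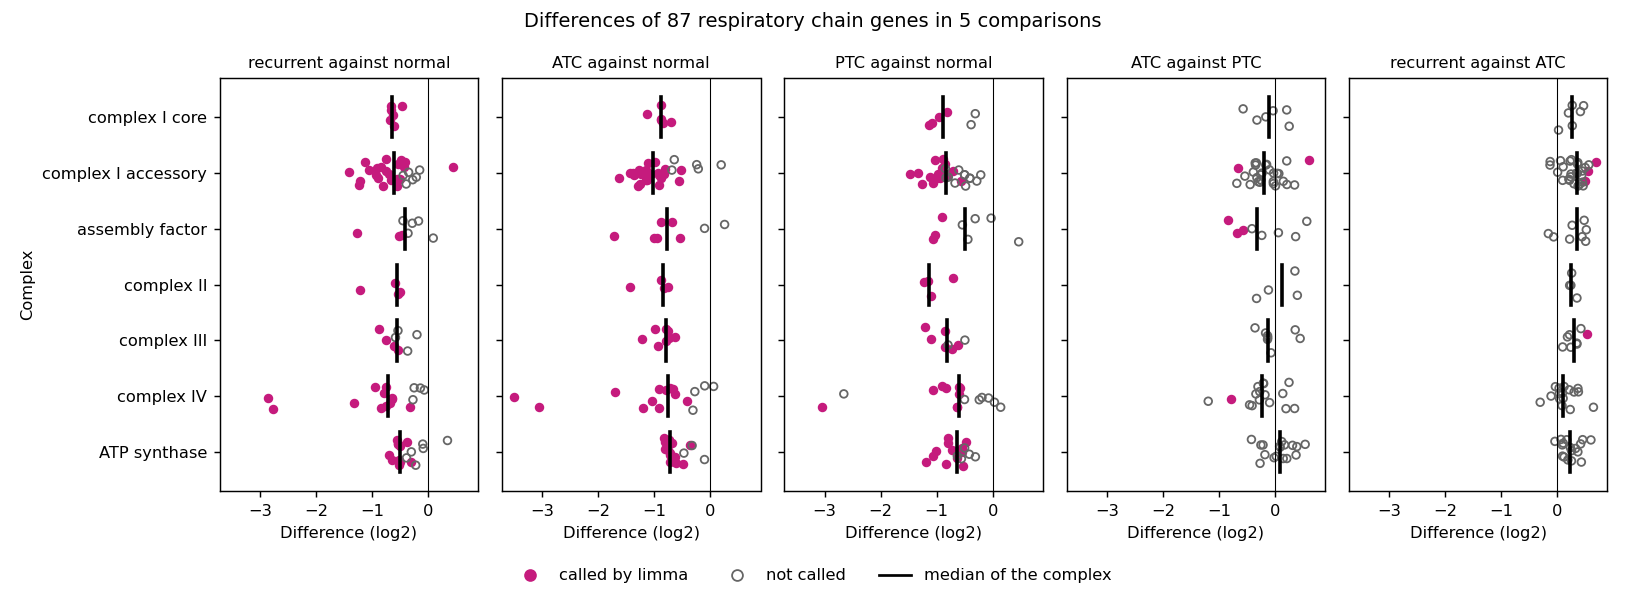
Log2 difference of each of the 87 genes in 5 comparisons, by complex, filled where limma called it and open where it did not, with the median of each complex as a bar. Against normal nearly all points lie left of 0, Cox7a1 and Cox8b farthest, and in ATC against PTC and recurrent tumours against ATC most points are open and near 0.

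Complex IV, cytochrome c oxidase, had 12 of 16 nuclear genes called lower in recurrent tumours and in ATC, and 9 in PTC. Cox7a2, the isoform of most tissues, was at 12.53, 12.80 and 13.18 in the lowest, median and highest recurrent tumour. It was at 12.36, 12.39, 12.44, 12.69 and 12.39 in ATC, and at 12.79, 12.79, 12.65 and 12.79 in PTC. The normal pools lay at 13.49 to 13.73, above every tumour. Cox7a2 fell by 0.84 ± 0.11, 1.21 ± 0.12 and 0.90 ± 0.13 (SE; adjusted p = 2.74e-06, 1.81e-07 and 6.17e-05) in recurrent tumours, ATC and PTC. Cox8a fell by 0.94, 1.04 and 0.84, Cox5b by 0.79, 0.91 and 0.64, and Cox6c by 0.68, 0.91 and 0.64. Cox5a, a subunit on the matrix side, fell by 0.64, 0.72 and 1.07. Cox7c, whose probe set was dim, did not fall in PTC, at 7.67, 8.04, 8.03 and 7.95 there against 7.59 to 8.21 in normal pools (0.14, not called). It fell by 0.75 in recurrent tumours and 0.64 in ATC. Cox7a2l, which takes part in joining complexes III and IV into supercomplexes, was called in no comparison, with -0.14, -0.10 and -0.24.

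The muscle and brown fat isoforms did not move as one. Cox7a1, the counterpart of Cox7a2 in heart, skeletal muscle and brown fat, had the largest fall of the 87 members. Its level was 8.25, 3.96, 5.44, 11.93, 8.97, 10.06, 6.59, 6.05 and 8.32 on recurrent arrays 1 to 9. It was 7.54, 7.30, 7.16, 7.82 and 5.61 in ATC and 6.76, 8.04, 8.32 and 7.04 in PTC. Normal pools had 10.57, 10.58, 10.69, 11.29, 9.43 and 11.002. All ATC and PTC lay below all normal pools, and recurrent 4 and recurrent 6 lay among or above them. The differences were -2.86 ± 0.83 (SE; adjusted p = 0.00999) in recurrent tumours, -3.51 ± 0.95 (0.00637) in ATC and -3.05 ± 1.02 (0.0467) in PTC. The call in PTC was lost in 9 of 10 fits that left out 1 array, with normal pool 5 as the exception, and with JK titles as a block (-2.75, adjusted p = 0.0862).

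Cox8b, the counterpart of Cox8a in muscle and brown fat, was at 10.70, 6.19, 6.62, 12.54, 10.81, 11.49, 6.42, 7.56 and 9.99 on recurrent arrays 1 to 9. It was at 10.19, 10.03, 8.48, 8.94 and 6.59 in ATC and at 8.59, 9.66, 9.70 and 9.08 in PTC. Normal pools had 12.30, 12.21, 12.38, 12.60, 9.90 and 12.07, so that pool 5 lay within the tumours' range. The differences were -2.77 ± 0.88 (SE; adjusted p = 0.0176) in recurrent tumours and -3.07 ± 1.01 (0.0215) in ATC, both called. In PTC the difference was -2.66 ± 1.08 (0.108), and was called there with the 2 groups alone (0.000887). Without ATC 5 the difference in ATC was -2.503 with no call (0.0769), and in JK titles alone, with 2 ATC, it was -2.27 with no call (0.0866).

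Cox6a2, the counterpart of Cox6a1 in striated muscle, was called in no comparison over all arrays. In JK titles alone it was called lower in recurrent tumours against ATC (-2.82, adjusted p = 0.0438, with 3 and 2 arrays). It was at 10.26, 6.82, 8.52, 13.14, 11.01, 11.34, 6.68, 8.34 and 11.09 on recurrent arrays 1 to 9, at 11.60, 11.11, 9.96, 10.25 and 7.07 in ATC, at 9.44, 10.07, 10.33 and 9.15 in PTC and at 9.21 to 10.49 in normal pools. Recurrent tumours and ATC lay on both sides of the normal range. The differences were -0.25 ± 0.81, 0.06 ± 0.94 and -0.19 ± 1.00 (SE), whose signs turned under other settings. Its partner Cox6a1 fell by 0.64, 0.67 and 0.58 with standard errors of 0.10, 0.11 and 0.12.

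The log2 ratio of each isoform to its partner on the same array was compared by two-sided exact permutation tests, chosen after these values were seen and adjusted over 9 tests. Cox7a1 over Cox7a2 differed from normal by -2.02 in recurrent tumours (exact p = 0.0532, adjusted 0.0957, n = 9 and 6), by -2.30 in ATC (0.00217, adjusted 0.0195, n = 5 and 6) and by -2.15 in PTC (0.00476, adjusted 0.0214, n = 4 and 6). The ratio was below every normal pool in 6 of 9 recurrent tumours, 5 of 5 ATC and 4 of 4 PTC, and the p-values in ATC and PTC are the smallest those numbers of arrays allow. Cox8b over Cox8a differed by -1.83 in recurrent tumours (exact p = 0.114, adjusted 0.171), -2.02 in ATC (0.0152, adjusted 0.0429) and -1.82 in PTC (0.0190, adjusted 0.0429). The Cox8b ratio was below every normal pool in 4 of 9 recurrent tumours, 3 of 5 ATC and 2 of 4 PTC. Cox6a2 over Cox6a1 differed by 0.39, 0.73 and 0.39, with exact p-values of 0.683, 0.344 and 0.243. In ATC and PTC, Cox7a1 and Cox8b changed more than their partners, and no such difference was detected for Cox6a2.

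**Figure D4:**
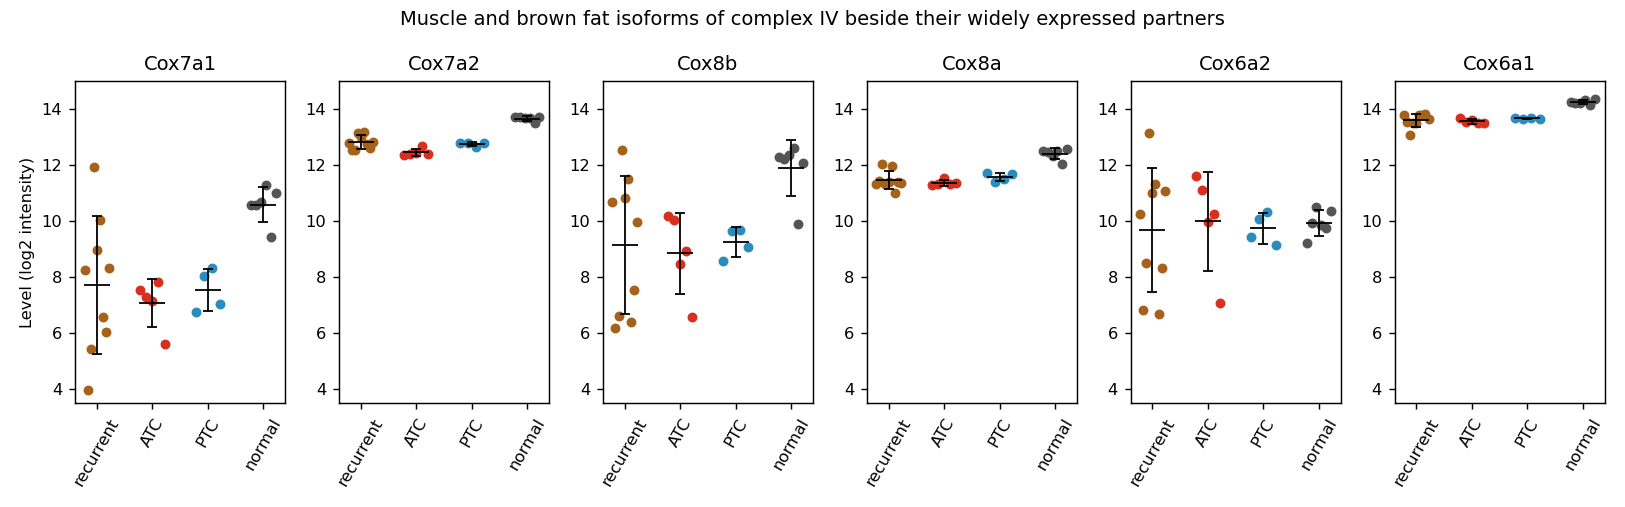
Level (log2 intensity) of Cox7a1, Cox8b and Cox6a2, each left of its widely expressed partner, on every array, with the mean and SD of each group as a bar with whiskers. The isoforms spread over several log2 units among recurrent tumours and ATC, while Cox7a2, Cox8a and Cox6a1 vary less, and all their tumour values lie below the normal pools but for Cox8a on recurrent 3, level with pool 5.

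The isoforms are given here beside Ckm of skeletal muscle and Ucp1 of brown fat on the same arrays. Ckm was at 6.37, 7.15 and 6.72 on recurrent 2, 3 and 7 and at 8.79 on ATC 5, the lowest of their groups. Cox6a2 was at 6.82, 8.52 and 6.68 on those recurrent tumours and at 7.07 on ATC 5. It was also low on recurrent 8, at 8.34, where Ckm was at 10.50, within the range of the normal pools. Recurrent 4, with the highest Ckm, had the highest Cox6a2, Cox7a1 and, among tumours, Cox8b. Within normal pools Ckm ran from 9.51 to 12.37, and pool 1, with the lowest Ckm of the group, had Cox7a1 at 10.57. Ucp1 was at 10.86 to 12.18 in 5 normal pools and 5.60 in pool 5, which had the lowest Cox7a1 and Cox8b of the group. In PTC, Ckm ran from 9.45 to 11.54, with only PTC 4 below the lowest normal pool, Ucp1 (4.57 to 6.01) lay below 5 of the 6 pools, and Cox7a1 lay below all pools. Recurrent 1 had Ucp1 at 9.93. Recurrent 6 had Cidea and Elovl3, also on the brown fat list, at 13.64 and 13.99, above all normal pools, with Ucp1 at 4.69. Of the same list Elovl6 was at 14.13 there, Ppara at 8.315 and Kcnk3 at 5.905, so the list did not move together on that array. What part muscle or brown fat RNA had in the isoforms' differences was not tested.

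**Figure D5:**
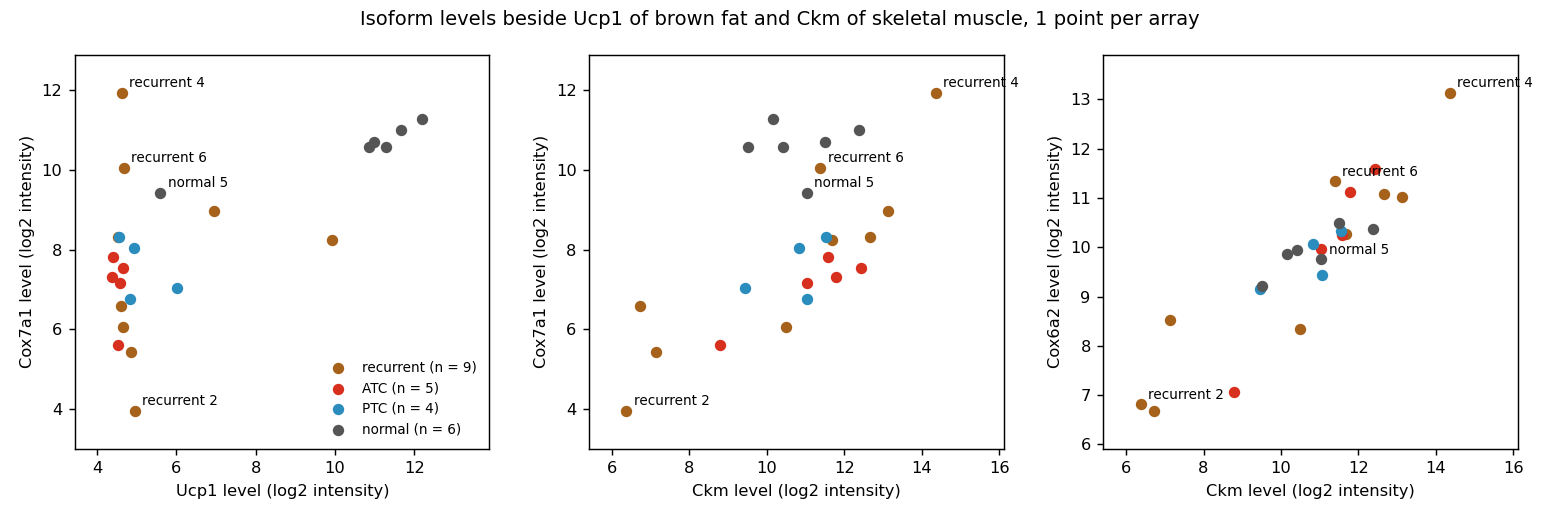
Cox7a1 against Ucp1 (left), Cox7a1 against Ckm (centre) and Cox6a2 against Ckm (right), all in log2 intensity, with a point per array coloured by group. Normal pools other than pool 5 stand apart at high Ucp1 and high Cox7a1, and recurrent 4 is at the top with Ckm at 14.36. Arrays with low Ckm have low Cox6a2, as does recurrent 8 with Ckm at 10.50.

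Of the other isoforms measured, Cox6b2, the testis form of Cox6b1, was dim and was called lower in recurrent tumours (-1.32, adjusted p = 0.0133) and in ATC (-1.70, 0.00621). It was at 5.17, 6.28 and 9.10 in the lowest, median and highest recurrent tumour, 5.78 to 6.91 in ATC, 7.11 to 7.93 in PTC and 7.49 to 8.30 in normal pools. In PTC it differed by -0.50 without a call, and was called with the 2 groups alone (adjusted p = 0.0439). Cox4i2, a lung form of the subunit Cox4, differed from normal by -0.07, -0.28 and -0.07 in recurrent tumours, ATC and PTC, and Cox8c, a testis form, by -0.27, -0.31 and 0.03, with no call.

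ATP synthase had 11 of 17 genes called lower in recurrent tumours, 14 in ATC and 12 in PTC, with median differences of -0.50, -0.71 and -0.63. Atp5o, the stalk subunit known as oligomycin sensitivity conferring protein, was at 11.19, 11.89 and 12.66 in the lowest, median and highest recurrent tumour. It was at 11.31, 11.23, 11.58, 11.75 and 11.41 in ATC and at 11.18, 10.91, 11.16 and 11.07 in PTC. Normal pools had 12.28 to 12.43 except pool 5 with 11.79. It fell by 0.81 ± 0.20 in ATC and 1.19 ± 0.21 (SE) in PTC, and differed by -0.39 in recurrent tumours without a call (adjusted p = 0.0931). Atp5b, the catalytic beta subunit, was at 12.23, 12.02, 12.17 and 12.06 in PTC, 12.30 to 13.07 in ATC and 12.48 to 13.45 in recurrent tumours, against 12.57 in normal pool 5 and 13.15 to 13.35 in the other pools. It fell by 1.01 ± 0.20 in PTC, and differed by -0.47 in ATC (adjusted p = 0.0535) and -0.22 in recurrent tumours. The alpha subunit Atp5a1 fell by 0.69 and 0.81 in recurrent tumours and ATC, and differed by -0.56 in PTC (adjusted p = 0.0626).

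Several genes encode the same subunit c of the rotor ring, and they differed. Atp5g1 had -0.09, -0.69 and -1.07 in recurrent tumours, ATC and PTC, called in ATC and PTC. Atp5g2 had 0.35, -0.11 and -0.42, none called, and Atp5g3 had -0.53, -0.49 and -0.64, all called. Atp5j, a coupling factor of the stalk, had its largest difference in ATC, -0.82. Atp5d, the delta subunit of the central stalk, fell by 0.64 in recurrent tumours, and Atp5e, the epsilon subunit, by 0.55, though with the 2 groups alone Atp5e was not called (adjusted p = 0.0596). Atp5k, a subunit e of the membrane part whose promoter holds the NRF1 motif, fell by 0.50, 0.75 and 0.83.

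Between the tumour groups the main fit called few members, and their median differences were smaller than those against normal. In ATC against PTC 5 members were called lower (5.75%, against 9.35% of all genes) and 1 higher (1.15%, against 7.81%), with a median difference of -0.13 beside -0.06 for all genes. The 5 were Sdhaf4 (-0.85), Cox7c (-0.78), Ndufaf3 (-0.69), Ndufb11 of complex I (-0.66) and Sdhaf1 (-0.57), and the member higher was Ndufb1 (0.60). Sdhaf4 was at 9.04, 9.04, 9.40, 9.71 and 9.35 in ATC and at 10.19, 10.15, 10.19 and 10.07 in PTC, and the groups did not overlap. All ATC lay below all PTC for 19 members (21.8%, against 17.5% of all genes) and above for 10 (15% of all genes did). The medians by complex lay on either side of 0, at -0.20 for complex I accessory subunits and -0.24 for complex IV, and at 0.12 for complex II and 0.09 for ATP synthase. All PTC have JK titles, as do 2 of the 5 ATC. With JK or other title as a block, Cox7c (adjusted p = 0.0532), Ndufb1 (0.0688) and Ndufb11 (0.0743) were not called. In JK titles alone Sdhaf1 (0.137) was not called either. Of 9 fits that left out 1 array, Sdhaf1 lost its call in 7, Cox7c in 6 and Ndufb1 in 5. Ndufaf3 lost its call in 3, Ndufb11 in 2 and Sdhaf4 in 0. The count of calls depended on the fit, with 28 in the 2 groups alone, 42 with array weights, 1 without ATC 5, 2 without PTC 2, and 3 without ATC 3, PTC 3 or PTC 4. The main fit shares 1 spread per gene with the recurrent tumours, which varied more. The shares of all genes called in these other fits are not given here. In the 2 groups alone Atp5b (0.54) and Uqcrfs1 (0.45) were called higher in ATC and Cox6b2 (-1.19) lower.

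In recurrent tumours against ATC 4 members were called higher (4.6%, against 1.19% of all genes) and none lower (3.12% of all genes were), and the median was 0.25 beside 0.05 for all genes. They were Ndufc1 (0.68 ± 0.19, adjusted p = 0.0399), Ndufa6 (0.55 ± 0.13, 0.0131), Uqcrq (0.54 ± 0.14, 0.0357) and Ndufs4 (0.50 ± 0.14, 0.0468; all SE). Ndufa6, an accessory subunit of complex I, was at 11.51, 11.72 and 12.22 in the lowest, median and highest recurrent tumour. It was at 11.28, 10.99, 11.40, 11.39 and 11.08 in ATC, and the groups did not overlap. All recurrent tumours lay above all ATC for 2 members (0.202% of all genes did), Ndufa6 and Uqcrq. With the 2 groups alone none of the 4 was called, with adjusted p-values of 0.254, 0.157, 0.217 and 0.305 in the order given. Leaving out 1 array gave 0 calls without ATC 2 or ATC 5, 1 without ATC 1 or ATC 3, 2 without recurrent 4 or recurrent 9, and 13 without recurrent 2. The shares of all genes called higher in these fits are not given here. The largest difference among complex II genes was 0.35 for Sdhb and among ATP synthase genes 0.60 for Atp5g1, neither called.

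Recurrent tumours differed from each other more than those of any other group. Their array medians had an SD of 0.31, against 0.07 in ATC, 0.03 in PTC and 0.13 in normal pools. Recurrent 2 and recurrent 3 were lowest, at -0.93 and -0.92, recurrent 8 followed at -0.75, recurrent 6 was at -0.32 and recurrent 4 at 0.08. On recurrent 4 29 of 87 members lay above all normal pools and 21 below all, and 75 lay above all ATC. On recurrent 2 76 lay below all normal pools. The shares of all genes were not counted for single arrays, so these counts cannot show what is particular to the members. The median of all genes differed from the normal mean by -0.14 on recurrent 4 and by -0.02 on recurrent 2. The median over 16 skeletal muscle markers differed from the normal mean by 0.86, -5.00, -4.79, 3.18, 2.27, 1.53, -2.87, -0.29 and 1.95 on recurrent arrays 1 to 9. The member medians there were -0.51, -0.93, -0.92, 0.08, -0.50, -0.32, -0.53, -0.75 and -0.64. Recurrent 9 thus had more muscle signal than recurrent 7 and a lower member median. How the 2 medians relate was not tested. Without recurrent 4, 69 members were called lower (79.3%, against 19.2% of all genes) and 1 higher in recurrent tumours against normal, with a median of -0.63 beside -0.02 for all genes. Normal pool 5 was low in fat markers and high in macrophage markers, whose median differed from the normal mean by 1.05. Its member median was -0.26. It lay above all PTC for 76 members and above all ATC for 71, also without a count over all genes. The part of other cell types in its levels was not tested. Without normal pool 5, 56 members were called lower in PTC (64.4%, against 7.84% of all genes) and 73 in ATC (83.9%, against 18.5%).

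The falls were also compared within the kinds of title. Among JK titles alone 65 members were lower in recurrent tumours (74.7%, against 22.2% of all genes), 61 in ATC (70.1%, against 17.2%) and 65 in PTC (74.7%, against 13.6%). The median member differed by -0.88, -0.96 and -0.81 there, and the median of all genes by 0.05, -0.02 and -0.02. The other titles comprise 6 recurrent tumours, 3 ATC and 2 normal pools, and no PTC. Gapdh's 3′ minus 5′ signal was at most 0.17 in these tumours and was 0.64 and 0.98 in these pools. Among other titles 2 members were lower in recurrent tumours, a share (2.3%) below that of all genes (3.12%), and 10 in ATC (11.5%, against 3.91%). The median member differed by -0.31 and -0.64 in these, and the median of all genes by -0.07 and -0.11. With JK or other title as a block, 65 members were lower in recurrent tumours (74.7%, against 19.6%), 76 in ATC (87.4%, against 20% of all genes) and 52 in PTC (59.8%, against 7.58%).

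Genes that feed the chain with electrons were lower as well. Of all genes 19.3%, 19.1% and 8.03% were called lower in recurrent tumours, ATC and PTC, and 14.5%, 15.1% and 6.16% higher. Of 15 genes of the citrate cycle and pyruvate entry, 11 were called lower in recurrent tumours, 13 in ATC and 10 in PTC, with none higher and medians of -0.64, -1.03 and -0.97. Suclg1, of succinyl-CoA ligase, fell by 1.32, 1.64 and 1.60, and Idh3a, of the NAD-dependent isocitrate dehydrogenase, by 0.96, 1.37 and 1.67. Of 14 genes of fatty acid oxidation 9, 12 and 10 were lower and none higher, with medians of -1.06, -1.52 and -1.21. Hadhb, of the trifunctional protein, was called lower in each (-1.12, -1.75 and -1.63), as was Eci1, an enoyl-CoA isomerase (-1.71, -2.17 and -1.37). Of 9 cytochromes and carriers 4, 5 and 6 were lower, with medians of -0.36, -0.44 and -0.93. Cycs, cytochrome c itself, fell by 0.48, 0.77 and 1.28. Of 8 assembly factors of complex IV 2 were lower in recurrent tumours and in ATC (25%, near the shares of all genes) and 4 in PTC (50%), with medians of -0.04, -0.30 and -0.59. Surf1 fell in each tumour group.

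Of 11 regulators of mitochondrial biogenesis, 2 were called lower in recurrent tumours (18.2%, against 19.3% of all genes), 4 in ATC (36.4%, against 19.1%) and 2 in PTC (18.2%, against 8.03%). Pprc1 alone was called higher, in each tumour group (9.09%, against 14.5%, 15.1% and 6.16% of all genes). Ppargc1a, the coactivator that drives mitochondrial gene expression in brown fat and muscle, was at 3.16, 5.74 and 8.87 in the lowest, median and highest recurrent tumour. It was at 5.91, 6.11, 7.04, 6.07 and 4.54 in ATC and 7.59, 8.10, 7.53 and 7.61 in PTC, against 9.65 to 10.33 in normal pools, above every tumour. It was called lower in recurrent tumours (-3.66 ± 0.69) and in ATC (-4.00 ± 0.80; SE), and differed by -2.23 ± 0.85 in PTC (adjusted p = 0.0842). Normal pool 5, low in Ucp1, had Ppargc1a at 9.65. Ppargc1b, its relative, fell by 1.19, 1.61 and 1.79, while Pprc1, another member of that family, rose by 1.34, 1.24 and 0.87 in recurrent tumours, ATC and PTC.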

How the data were processed

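The members and all gene lists were chosen with earlier results of these data known. Expression was measured in 24 samples of mouse thyroid on Affymetrix Mouse430A_2 arrays, and samples were grouped by their tissue label. The authors deposited log2 intensity for 22690 probe sets after RMA in Partek, according to the submitters' processing notes; software versions were not given in the sources used here. They ran from 2.71 to 14.96, and array medians from 7.38 to 7.58. RMA compresses high levels and would hide a shift of all genes. The number of arrays limits the precision. Among 276 pairs of arrays 0 were identical, with a highest correlation of 0.993.

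By the platform annotation 20393 probe sets had 1 gene symbol, 691 several and 1606 none. Each of 12394 genes was read by its probe set with the highest mean. The annotation can be old, but updating symbols to RefSeq changed 0 members. All 24 arrays entered 1 linear model of the 4 groups in limma 3.58.1 (R 4.3.3), checked on simulated data, with Benjamini-Hochberg adjustment over all genes and calls under 0.05. Genes were named by a rule: every tissue isoform, and per complex and comparison up to 3 called rises and 3 called falls, or the largest difference where none was called. From each other list up to 2 called genes per direction were named, with a few markers. Other members in the text were chosen after their values were seen. Motifs were counted in RefSeq promoters of GRCm38.p6 over every listed start of a gene, and CpG dinucleotides and printed bases were taken at the most upstream start. Alternatives were other probe sets, normalizations, spreads, array sets and title blocks.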

Additional observations from a re-analysis of the deposited data

Results flagged for a closer look

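For the 43 named members and the median over all members, 176 groups of 4 to 9 arrays were searched for a highest or lowest array whose gap to the next exceeds Dixon's critical value. Chance alone would mark about 1 group in 20, and 20 were marked. Normal pool 5 was the lowest of its group in 15 of these. Its level was 12.69 for Atp5a1, 12.57 for Atp5b, 11.79 for Atp5o, 12.9 for Cox5a, 13.49 for Cox7a2 and 9.9 for Cox8b. It was 11.75 for Ndufa6, 11.59 for Ndufab1, 11.74 for Ndufv3, 11.47 for Sdha and 11.22 for Sdhb. It was 12.05 for Uqcrc2, 11.23 for Uqcrfs1 and 12.14 for Uqcrh, and the pool's median over all members was -0.26. The same pool had Ucp1 at 5.60, and the part of fat RNA in these levels was not tested. Normal pool 6 stood above its group with 11.56 for Atp5g1 and 12.62 for Ndufc1. In ATC, ATC 4 stood above its group with 12.69 for Cox7a2. In PTC, PTC 1 stood above with 12.44 for Cox5a and PTC 3 below with 12.65 for Cox7a2.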

How the results depend on the processing

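The counts of members called against normal in recurrent tumours, ATC and PTC kept within 1.5 times of 62, 73 and 54 in 3 other normalizations, robust spreads, blocks by title and JK titles alone. Leaving out 1 array gave 54 to 70, 69 to 73 and 44 to 56 calls there, 1 to 8 in ATC against PTC and 0 to 13 in recurrent tumours against ATC. The last 2 comparisons had 6 and 4 calls, and gave 28 and 0 in the 2 groups alone and 42 and 13 with array weights. Without assembly factors ATC against PTC had 3 calls. Titles other than JK alone gave 2 calls in recurrent tumours and 10 in ATC against normal and 0 between these tumours, with fewer arrays. Every probe set of the members, the 87 used and 73 others, was also counted as a unit. That gave 108, 129 and 89 calls against normal, 16 in ATC against PTC and 8 in recurrent tumours against ATC. Of the 87 members, 10, 24 and 20 were called and over 2-fold against normal, then 0 and 0. For every probe set, over 2-fold, the 2 groups alone and array weights, shares of all genes or probe sets are not given here. Without recurrent 4, a choice made after seeing the data, recurrent tumours against ATC had 2. Median differences moved beyond their spread to -0.22 in ATC against PTC after quantile normalization and to -0.69 in PTC against normal with arrays centred on medians.

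Signs turned for isoforms that were not called and for Uqcrq, and the cause was not tested. With JK or other title as a block, Cox8c had -0.0717 in PTC and Cox6a2 -0.0016 in ATC against normal, and Cox4i2 0.0581 in recurrent tumours against normal and 0.023 in ATC against PTC. With 3 kinds of title as a block these were -0.0422, -0.0193, 0.22 and 0.0906. In JK titles alone Cox8c had -0.0422 in PTC against normal, and Cox4i2 0.0077 in ATC and 0.21 in recurrent tumours against normal. There Cox4i2 had 0.12 and Cox8b 0.85 in ATC against PTC, and in recurrent tumours against ATC Cox7a1 had -1.54, Cox8b -2.27 and Cox8c -0.0326. In other titles alone Cox6a2 had -0.98 in ATC and 0.20 in recurrent tumours against normal, and 1.18 between these tumours. With array weights Cox8c had -0.0101 in PTC against normal and -0.11 in recurrent tumours against ATC. Cox6a2 then had -0.61 in ATC and 0.17 in recurrent tumours against normal, -0.44 in ATC against PTC and 0.78 in recurrent tumours against ATC. Over fits without 1 array Cox6a2 had -0.68 to 0.13, -0.34 to 0.79 and -0.39 to 0.006 in recurrent tumours, ATC and PTC against normal, -0.15 to 0.98 in ATC against PTC and -1.04 to 0.0937 in recurrent tumours against ATC. Cox8b had -0.75 to 0.15 and -0.26 to 0.67 in the last 2, and Cox8c -0.0251 to 0.0784 in PTC against normal and -0.0662 to 0.12 in recurrent tumours against ATC. Without recurrent 4 Cox8b had -0.13 in recurrent tumours against ATC, and without normal pool 5 Cox8c had -0.0251 in PTC against normal. Other probe sets of Uqcrq gave 0.24 and 0.17 in PTC against normal and -0.0282 in recurrent tumours against ATC. Of 73 other probe sets of 46 members 3, 3 and 10 had the opposite sign in recurrent tumours, ATC and PTC against normal, and 1, 0 and 0 of the 48 with a mean over 10. No paired analysis was possible because the labels give the groups no shared replicate numbers.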

Other observations

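Beside the respiratory chain itself, a few mitochondrial carriers and enzymes differed between tumour groups. Hccs, which attaches heme to cytochrome c, was higher in ATC than in PTC by 1.39 ± 0.32 (SE; adjusted p = 0.00418), and Slc25a5, an ADP and ATP carrier, by 0.62 ± 0.19 (0.0229). Dld, the dihydrolipoamide dehydrogenase of pyruvate and citrate cycle complexes, was higher by 0.79 ± 0.23 (0.0211). Against normal, Hccs fell by 1.34 in PTC and differed by 0.05 in ATC, and Dld fell by 1.32 in PTC and differed by -0.53 in ATC. Suclg2, of the GTP-forming succinyl-CoA ligase, was higher in recurrent tumours than in ATC by 0.71 ± 0.13 (adjusted p = 0.00269), the only call in that comparison among the 15 genes of its list. ATC 4, with Tg at 13.48, had a respiratory chain median of -0.73, the highest of the 5 ATC, and lay within the range of the PTC (-0.77 to -0.70).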
